A study of Rattus norvegicus with 34 samples.

Results

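The left ventricle of 17 rats was profiled 48 h after an injection of doxorubicin (DOX) or saline, with 9 DOX and 8 saline arrays, 1 rat per array. These arrays were chosen by their sample titles and are 17 of the 34 arrays of the study. The other 17 hold PBMC, the lymphocytes and monocytes of the blood. The DOX rats received 1 intraperitoneal injection of DOX hydrochloride in saline at 12 mg/kg, and the control rats received saline by the same route. All were female Sprague-Dawley rats, assigned at random, with no genetic modification named; their age is not given in the sources used here. Only 1 dose and 1 time were studied.

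DOX is an anthracycline that inserts into DNA, poisons topoisomerase II and undergoes redox cycling in mitochondria, and injury to the heart limits its use. The ventricular wall is built from cardiomyocytes, which are packed with mitochondria and sarcomeres and joined end to end at intercalated discs, with endothelial cells, fibroblasts and smooth muscle cells between them. Whole tissue was extracted, so fewer cells of a type and less RNA per cell cannot be told apart in any value below.

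The deposited values are log2 intensities, and 2 scales are given for each gene. The plain scale is the deposited value less the median of the probes that were not expressed on the same array, so that 0 is the level of an unexpressed probe. The quantile scale gives all 17 heart arrays the same distribution of values over the 22523 probes. Differences are DOX minus saline with limma's standard error (SE, n = 9 DOX and 8 saline arrays), and calls required both an adjusted p below 0.05 and more than a 2-fold change. Levels of a group are given as its lowest, median and highest array. The rank of a gene is the percentile among the 6760 tested genes of the same array, averaged over the arrays of a group.

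The DOX arrays were dimmer and coarser than the saline arrays. The median plain level of the 6760 genes was 0.22 to 0.70 on the DOX arrays (median of the arrays 0.44) and 1.32 to 1.79 on the saline arrays (median 1.56). The interquartile range of the same genes was 0.63 to 1.31 on the DOX arrays and 2.07 to 2.40 on the saline arrays. The deposited tables held 2826 to 4802 distinct values per DOX array and 22196 to 22417 per saline array. No DOX array overlapped a saline array in these measures or in the level of the brightest gene, 6.57 to 7.61 on the DOX arrays and 8.53 to 8.76 on the saline arrays (two-sided exact permutation tests, p = 4.11e-05 each, the smallest that 9 against 8 arrays allow; adjusted over 5 measures, 5.14e-05). The 95th percentile of the unexpressed probes did not separate the groups, at 0.22 to 0.46 on the DOX arrays and 0.25 to 0.42 on the saline arrays (exact permutation test, p = 0.630). DOX array 6 had the lowest median level and the fewest distinct values.

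**Figure D1:**
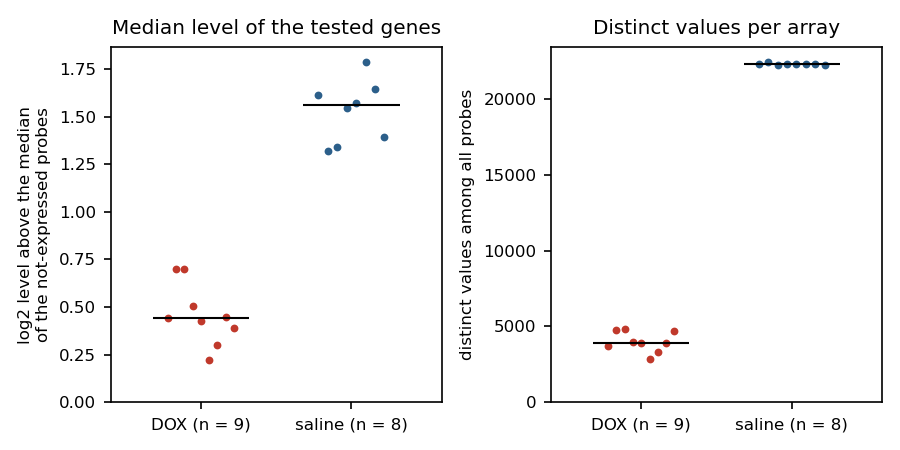
Array measures of the left ventricle by group, with 1 point per array and a bar at the group median. The median log2 level of the tested genes and the number of distinct values were lower on all 9 DOX arrays than on all 8 saline arrays.

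Coarse values also occurred among the PBMC arrays. Among the 17 PBMC arrays, 9 had few distinct values, namely the 8 labelled saline (2804 to 5746) and 1 labelled DOX (3086), whereas the other 8 labelled DOX had 22271 to 22401. The numbers of coarse and fine PBMC arrays, 9 and 8, equal those of the DOX and saline rats. The paper reports that nearly all genes changed in PBMC were lower with DOX. Here the coarse PBMC arrays, all but 1 labelled saline, were the lower ones, by a median of −1.12 over all tested genes. Whether the PBMC labels are exchanged could not be settled from the labels, so the PBMC arrays as labelled do not show whether coarse values go with DOX. Distinct values and treatment therefore cannot be told apart in the heart, where every DOX array is of the first kind. The genes described below were also read on the PBMC arrays of both kinds: for few minus many distinct values, the median difference was 0.07 over the 92 genes that were higher in the DOX hearts on both scales and −1.72 over the 1049 genes that were lower on both, beside −1.12 over all tested genes, −0.54 over those higher on the quantile scale only, −1.50 over those lower on the plain scale only and −0.84 over those not called.

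On the plain scale 92 genes were higher (1.36% of those tested) and 3257 lower (48.2%), and the median difference over all genes was −0.94. On the quantile scale 448 were higher (6.63%) and 1049 lower (15.5%), with a median of −0.23. All 92 genes that were higher on the plain scale were also higher on the quantile scale, and all 1049 that were lower on the quantile scale were also lower on the plain scale. A further 355 genes (5.25%) were higher on the quantile scale only, and 2207 (32.6%) were lower on the plain scale only. Under all of the 5 scalings tried, 92 genes were called higher (1.36%) and 259 lower (3.83%). These 92 are the genes higher on the plain scale, which called the fewest genes higher. Groups did not overlap for 71 of the 92 higher genes and 1022 of the 1049 lower genes on both scales, whereas among all tested genes 123 had no overlap in the higher direction (1.82%) and 4289 in the lower (63.4%) on the plain scale, and 682 (10.1%) and 2230 (33%) on the quantile scale. By rank within the array, groups were apart for 1192 genes in the higher direction (17.6%) and 1426 in the lower (21.1%).

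**Figure D2:**
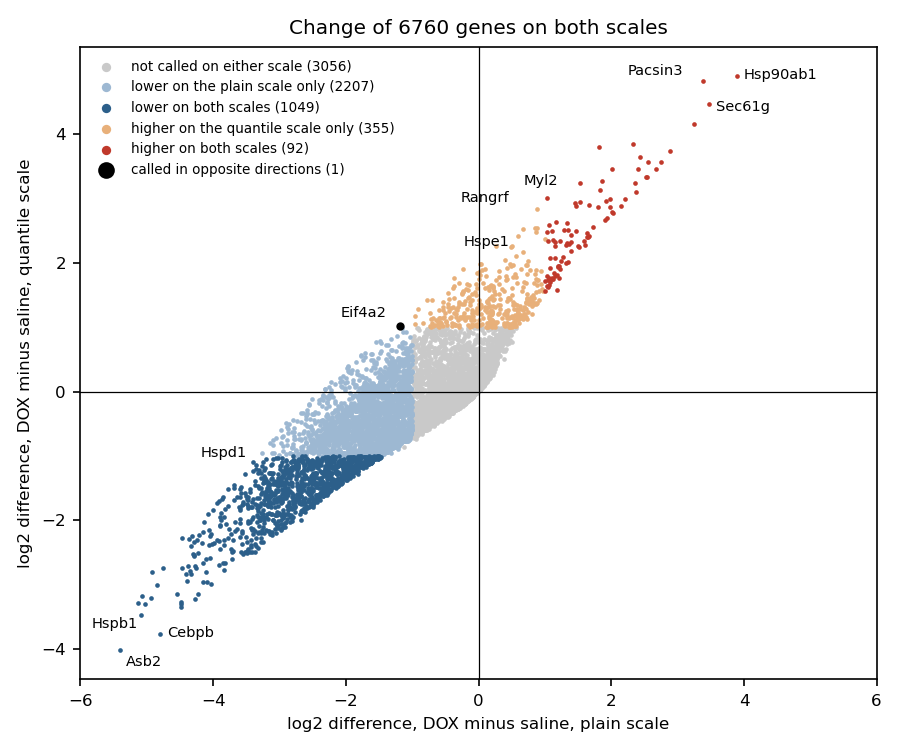
Log2 difference, DOX minus saline, of each of the 6760 tested genes on the plain scale (x axis) and the quantile scale (y axis), coloured by call. The 92 genes higher on both scales lie at the upper right, the 1049 lower on both at the lower left, and 1 gene, Eif4a2, is called in opposite directions.

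The height of a gene in saline hearts went with its difference. Over the 6760 genes, the Spearman correlation between the saline level and the difference was −0.857 on the plain scale and −0.422 on the quantile scale, given as a description because the saline level enters both. Of the 92 genes higher on both scales, 53 had a saline mean at or under the background level of 0.42, the highest 95th percentile of unexpressed probes on a saline array, compared with 1159 of all tested genes (17.1%). Of the 1049 genes lower on both, 531 had a DOX mean at or under the corresponding level of 0.46 (50.6%), a share like that of all tested genes (3361, 49.7%). Genes were tested by an average over all 34 arrays, so a gene at background in saline hearts could enter through DOX hearts or PBMC. The contrast of 53 of 92 with 17.1% is not independent of that filter and is given as a description only. The median gene that was higher on both had a level of 2.12 in DOX hearts and 0.31 in saline hearts, and the median gene that was lower on both had 0.46 in DOX hearts and 3.16 in saline hearts.

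Both groups carried the markers of ventricular muscle. The 17 tested cardiomyocyte markers had a median rank of 99.1 in DOX hearts and 99.6 in saline hearts. Of these, 5 were lower on both scales, beside 15.5% of all tested genes, and 9 on the plain scale only. Of the rest, 1 was higher on both, 1 on the quantile scale only and 1 uncalled. Their mean level was 3.31 to 4.58 on the DOX arrays and 6.32 to 6.86 on the saline arrays. Their median difference was −2.84 on the plain scale and −0.69 on the quantile scale. Scaling each array to a common median and median absolute deviation made it 4.03. All 9 tested T-cell markers and all 3 tested B-cell markers had saline means at or under background. Both groups were led by contractile and mitochondrial genes, with 4 genes shared between their 10 highest ranks, Tnni3, Myh6, Tpm1 and Tnnc1, all of the sarcomere. Tnni3, cardiac troponin I, was at 5.65, 6.05 and 6.43 on the DOX arrays and 8.07, 8.21 and 8.37 on the saline arrays, so its plain level was lower on every DOX array while its rank was 99.9 in DOX hearts and 99.9 in saline hearts. Tnnt2 and Atp5f1b led the saline hearts and were called lower on the plain scale, at −2.37 for Tnnt2 and −3.88 for Atp5f1b. The DOX hearts were led by Akr1c12, an aldo-keto reductase, and Atp5mg, a small subunit of the ATP synthase. The level of Akr1c12 was 5.69, 7.06 and 7.61 on the DOX arrays and 4.52, 5.05 and 7.30 on the saline arrays. The groups overlapped, with the highest saline array above most DOX arrays, and the difference was 1.53 ± 0.35 on the plain scale and 3.24 ± 0.27 on the quantile scale. Atp5mg was at 6.20, 6.90 and 7.12 on the DOX arrays and 6.95, 7.16 and 7.44 on the saline arrays, so that its plain levels overlapped (plain difference −0.37) while its rank was 99.97 in DOX hearts and 99.1 in saline hearts.

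The 15 largest increases on the quantile scale among genes whose groups did not overlap were led by Hsp90ab1, and their limma adjusted p was at most 2.24e-06 on either scale. Their ranks were 90.0 to 99.7 in DOX hearts and 1.07 to 85.1 in saline hearts, and 8 of them had a saline mean at or under background. Set against the saline background level, these 8 were at least 4.08-fold to 10.8-fold higher on the plain scale, and the other 7 were 3.51-fold to 10.5-fold higher. Hsp90ab1 encodes the constitutive cytosolic chaperone HSP90 beta. Its level was 2.42, 4.08 and 4.45 on the DOX arrays and −0.21, −0.04 and 0.06 on the saline arrays. On this probe all DOX arrays were well above all saline arrays, which sat at the level of unexpressed probes. The difference was 3.89 ± 0.20 on the plain scale and 4.91 ± 0.21 on the quantile scale. A second expressed probe of the gene differed by 0.81 on the plain scale, under 2-fold. Which transcript either probe reads was not analysed. Cdc37, the kinase-loading partner of HSP90, was among the genes lower on both scales, with 0.72, 1.42 and 1.72 on the DOX arrays and 5.52, 5.76 and 6.10 on the saline arrays.

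Pacsin3 and Sec61g followed. Pacsin3, a membrane-bending protein of striated muscle, was at 4.29, 4.46 and 5.13 on the DOX arrays and 0.71, 1.18 and 1.63 on the saline arrays, a difference of 3.39 ± 0.12 on the plain scale, but its other expressed probe was called lower there (plain difference −1.11). Sec61g, the gamma subunit of the channel through which proteins enter the endoplasmic reticulum, was at 2.99, 3.87 and 4.37 on the DOX arrays and 0.26, 0.38 and 0.51 on the saline arrays. In both genes every DOX array exceeded every saline array. The beta subunit of the same channel, Sec61b, was lower, with −0.09, 0.02 and 0.20 on the DOX arrays and 1.21, 1.57 and 1.92 on the saline arrays, and its quantile difference of −1.005 lay at the edge of the 2-fold limit.

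Some genes of translation were higher, all but Ddx3x picked here after their values were seen, and most initiation factors were not. Of the 34 tested genes with an Eif symbol, kinases and binding proteins of these factors included, 3 were higher on both scales, 1 on the quantile scale only, 8 lower on both, 12 lower on the plain scale only, 1 opposite and 9 uncalled, with a median quantile difference of −0.33 (0.47 under median and MAD scaling). Over all tested genes 1.36% were higher on both scales and 5.25% on the quantile scale only. A further 15.5% were lower on both and 32.6% on the plain scale only. Ddx3x, an RNA helicase that unwinds leaders of mRNAs, was at 2.87, 3.61 and 3.84 on the DOX arrays and 0.63, 1.07 and 1.41 on the saline arrays. Eif2s3, the gamma subunit of the factor that brings the initiator tRNA, was at 2.46, 3.26 and 3.67 on the DOX arrays and 1.12, 1.36 and 1.63 on the saline arrays. These groups did not overlap. Eif1ax and Eif1a, which encode forms of a factor that scans for the start codon, differed by 1.94 and 1.34 on the plain scale, with overlap between the groups in Eif1a. Ybx1, a protein that coats mRNA, was at 1.93, 2.71 and 3.17 on the DOX arrays and 0.11, 0.33 and 0.46 on the saline arrays, again without overlap.

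Single mitochondrial genes were among the increases, whereas the lists for oxidative phosphorylation and for mitochondrial import each had 1 member higher on both scales (of 51 and of 44, near the 1.36% of all genes) and 11 and 16 lower on both. Mccc2, the beta subunit of the carboxylase that acts in leucine breakdown, was at 2.67, 2.98 and 3.41 on the DOX arrays and −0.02, 0.15 and 0.33 on the saline arrays, so the groups were far apart. Slc25a30, a carrier of the inner membrane, was at 2.48, 3.11 and 3.40 on the DOX arrays and 0.27, 0.55 and 0.88 on the saline arrays. Cox6c, a small subunit of cytochrome c oxidase, was at 2.60, 3.20 and 4.03 on the DOX arrays and 0.65, 0.83 and 1.03 on the saline arrays. No array of one group reached the other on these probes, but the other expressed probe of Slc25a30 was not called, with a plain difference of 0.02 and a range of 0.49 to 0.97 on the DOX arrays and 0.40 to 1.05 on the saline arrays. Smaller factors were called as well and were picked after their values were seen: Coa5, an assembly factor of cytochrome c oxidase (plain difference 1.66 ± 0.19), Higd2a, which acts in respiratory supercomplexes (plain difference 1.46 ± 0.14), and Smim20, a further assembly factor (plain difference 2.03 ± 0.13). Micos10, which shapes the cristae, differed by 1.14 ± 0.10 on the plain scale.

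Among receptors and signalling genes, Ptgfr, the receptor for prostaglandin F2 alpha, was at 1.87, 2.82 and 3.57 on the DOX arrays and −0.11, 0.00 and 0.07 on the saline arrays. Pde3a, the phosphodiesterase that degrades cyclic AMP in cardiomyocytes, was at 0.46, 1.79 and 2.81 on the DOX arrays and 0.14, 0.19 and 0.33 on the saline arrays. The DOX arrays were above the saline arrays throughout in both genes, but the DOX values of Pde3a were widely spread. Lap3, a cytosolic leucine aminopeptidase, differed by 2.33, Psmb9, an immunoproteasome subunit, by 1.87, and Gsta1, a glutathione transferase, by 2.55 on the plain scale. The other genes of the 15 were Zfp799, Atp5mk, Rps24, Plppr3 and Cep57l1, which differed by 3.25, 1.81, 2.01, 2.68 and 2.52 on the plain scale.

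**Figure D3:**
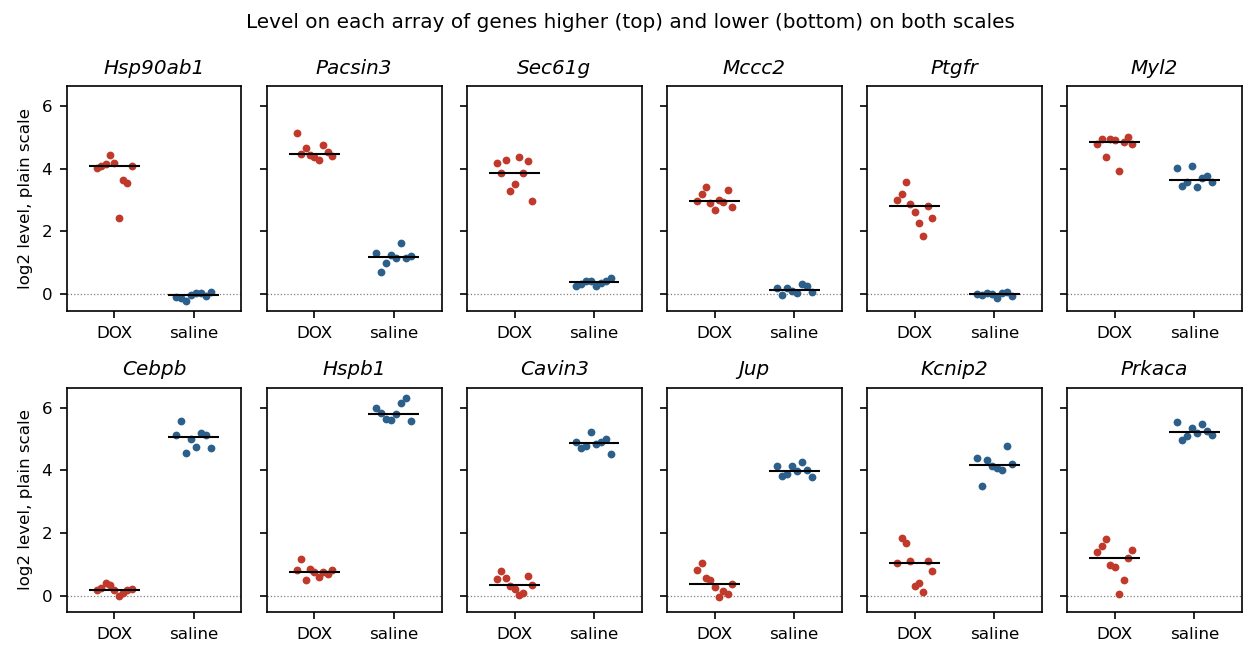
Plain log2 level of 12 genes on each array, DOX left of saline, with a bar at the group median and a dotted line at the level of unexpressed probes. In the 6 genes of the upper row, higher in DOX hearts, the saline medians are at or below 0.38 except in Pacsin3 and Myl2, and in the 6 of the lower row every DOX point is at or below 1.84 and every saline point at or above 3.52.

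Of the sarcomere, Myl2, the ventricular regulatory light chain of myosin, was the only tested gene called higher on both scales. It was at 3.93, 4.87 and 5.02 on the DOX arrays and 3.43, 3.65 and 4.08 on the saline arrays. The groups overlapped on the plain scale (plain difference 1.03 ± 0.14), and its rank was 99.1 in DOX hearts and 85.5 in saline hearts. The plain difference fell just under 2-fold without DOX array 8 (0.997), saline array 2 (0.997) or saline array 5 (0.993). The other 22 sarcomere genes held 6 that were lower on both scales, 13 that were lower on the plain scale only and 3 that were not called.

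Of the neutrophil markers, a pair was higher. S100a8, a calcium-binding protein of neutrophil granules, was at 1.57, 2.52 and 3.69 on the DOX arrays and 0.28, 0.70 and 1.69 on the saline arrays, a difference of 1.93 ± 0.27 on the plain scale with overlap. Its partner S100a9 was at 0.51, 1.04 and 2.08 on the DOX arrays and −0.21, −0.09 and 0.11 on the saline arrays, with no overlap. Of the 11 neutrophil markers 5 were tested, and 2 were higher on both scales (1.36% of all genes) and 3 were not called, with a median plain difference of 0.12; 4 of the 5 had a saline mean at or under background, and the mean level of the 5 was 0.55 to 1.20 on the DOX arrays and 0.08 to 0.39 on the saline arrays. A part of these cells in other increases was not tested.

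Where a gene with an increase had several probes, they often disagreed. At least 2 expressed probes were held by 124 genes, and 16 of these had a probe that was higher on both scales. In 10 of the 16 another probe of the same gene was called lower on the plain scale, and in 5 of them it was lower on both. Of all tested genes 48.2% were lower on the plain scale and 15.5% on both, and whether these probes differ from that was not tested. All probes were higher on both scales in 1 gene, Higd2a, and all were higher on the quantile scale in 3 more, Hsp90ab1, Rbm25l1 and Sfr1. In the 10 discordant genes the 12 lower probes had saline means of 1.50 to 7.46 and the 11 higher probes had saline means of −0.18 to 1.18. The sequence that each probe reads was not analysed here, and whether the probes read different transcripts was not tested.

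Idh2, the mitochondrial isocitrate dehydrogenase that makes NADPH, shows the disagreement. Its brighter probe was at 3.14 ± 0.78 on the DOX arrays and 6.73 ± 0.25 on the saline arrays (mean ± SD), a plain difference of −3.59 ± 0.27. Its dimmer probe was at 1.62 ± 0.53 on the DOX arrays and 0.05 ± 0.10 on the saline arrays, a plain difference of 1.57 ± 0.18. The groups did not overlap on either probe, and the signs were opposite on the quantile scale too. Eef1a1, the elongation factor that delivers tRNAs to the ribosome, had 3 probes with plain differences of −3.15 to −3.68, 1 that was higher on the quantile scale only (plain difference 0.65, quantile difference 2.33) and 1 that was higher on both scales, with means of 2.63 in DOX hearts and 0.04 in saline hearts. Pacsin3 belongs to the same set, since its second expressed probe had means of 0.39 in DOX hearts and 1.50 in saline hearts. The second probe of Hsp90ab1 was at 0.94 in DOX hearts and 0.14 in saline hearts, a plain difference of 0.81 ± 0.08. Of the 92 genes that were higher on both scales, 5 had more than 1 expressed probe, so most of the increases rest on a single probe.

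**Figure D4:**
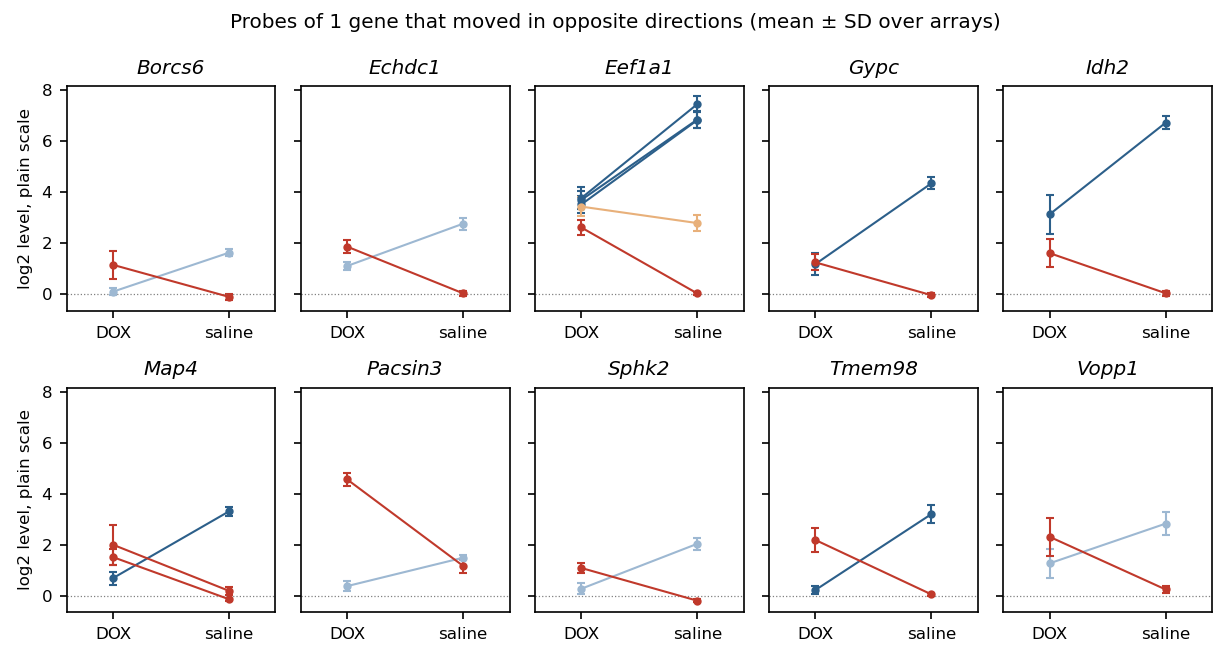
Plain log2 level of the expressed probes of the 10 discordant genes, DOX left of saline, as the mean with the SD over arrays and a line joining the means of each probe (red, higher on both scales; orange, higher on the quantile scale only; dark blue, lower on both; light blue, lower on the plain scale only). In Idh2 the bright probe has means of 3.14 in DOX hearts and 6.73 in saline hearts, and the dim probe has 1.62 in DOX hearts and 0.05 in saline hearts.

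Promoter windows are shown for 4 heat shock genes, chosen after their values were seen, because the calls of neighbouring Hspd1 and Hspe1 on the quantile scale were opposite. Hspd1 encodes the mitochondrial chaperonin HSP60 and Hspe1 its lid, HSP10; the pair is read outward from a shared region with starts 290 bases apart. Hspb1 encodes the small chaperone HSP27. Windows from 250 bases before to 50 bases after the start of each gene are taken from RefSeq (GRCr8) and written 5′ to 3′ along the strand of the gene. Capitals mark GAANNTTC, the core of the heat shock element, which reads the same on either strand; matches of this motif do not overlap another searched motif, since it was the only one. The windows are Hspd1 at chr9:64083988-64084287 on the minus strand, Hspe1 at chr9:64084077-64084376 on the plus strand, Hspb1 at chr12:26432252-26432551 on the minus strand and Hsp90ab1 at chr9:22930173-22930472 on the plus strand.
Hspd1: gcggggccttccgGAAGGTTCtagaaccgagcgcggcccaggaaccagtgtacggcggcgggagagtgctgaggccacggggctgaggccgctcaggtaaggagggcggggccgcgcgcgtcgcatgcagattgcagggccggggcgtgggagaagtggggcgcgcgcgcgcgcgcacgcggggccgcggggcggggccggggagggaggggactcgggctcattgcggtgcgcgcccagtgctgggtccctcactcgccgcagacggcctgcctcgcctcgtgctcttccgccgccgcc
Hspe1: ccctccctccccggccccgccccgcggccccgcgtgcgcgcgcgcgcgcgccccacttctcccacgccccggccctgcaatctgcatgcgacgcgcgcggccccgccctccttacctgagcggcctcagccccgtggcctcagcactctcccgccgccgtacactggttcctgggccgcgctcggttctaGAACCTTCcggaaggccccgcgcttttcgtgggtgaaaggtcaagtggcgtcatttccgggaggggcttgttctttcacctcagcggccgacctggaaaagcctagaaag
Hspb1: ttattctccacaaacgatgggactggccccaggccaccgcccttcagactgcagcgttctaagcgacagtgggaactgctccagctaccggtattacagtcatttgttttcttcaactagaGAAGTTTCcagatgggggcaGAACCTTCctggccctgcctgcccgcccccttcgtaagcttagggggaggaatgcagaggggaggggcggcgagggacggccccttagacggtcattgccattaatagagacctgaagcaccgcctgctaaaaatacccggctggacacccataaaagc
Hsp90ab1: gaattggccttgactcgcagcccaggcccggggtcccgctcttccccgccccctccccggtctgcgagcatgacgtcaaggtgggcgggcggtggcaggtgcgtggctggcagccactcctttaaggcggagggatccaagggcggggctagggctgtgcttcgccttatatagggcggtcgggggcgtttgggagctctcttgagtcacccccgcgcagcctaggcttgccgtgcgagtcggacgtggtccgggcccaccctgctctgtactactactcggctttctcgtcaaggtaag

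The windows of Hspd1 and Hspe1 share 211 bases and hold the same match, once on each strand. The window of Hspb1 holds 2 matches and that of Hsp90ab1 holds 0. The motif was in 8.59% of all 33469 windows of this length and in 5.71% of the 5653 windows of tested genes. It was in 6.85% of the 73 windows of genes that were higher on both scales and in 5.36% of the 877 windows of genes that were lower on both. The median G+C content of these windows was 61.3% for the higher genes and 62.0% for the lower genes.

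Hspd1 was at 2.71, 3.23 and 3.53 on the DOX arrays and 6.23, 6.55 and 6.76 on the saline arrays. Its groups were far apart, with differences of −3.28 ± 0.11 on the plain scale and −1.27 ± 0.11 on the quantile scale, but the sign turned to 1.90 when each array was scaled to a common median and median absolute deviation (median and MAD scaling). Hspe1 was at 1.74, 1.98 and 2.94 on the DOX arrays and 1.22, 1.53 and 1.71 on the saline arrays. The DOX arrays were above the saline arrays without overlap, and the difference was 0.72 ± 0.15 on the plain scale, under 2-fold, and 1.97 ± 0.12 on the quantile scale; under median and MAD scaling both genes were higher, at 1.90 for Hspd1 and 3.35 for Hspe1. Among 192 pairs of tested genes read outward from starts within 1000 bases, 7 had both genes called on the quantile scale, and 2 of the 7 went in opposite directions, namely this pair and Kars1 with Terf2ip.

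Hspb1 was among the 15 largest decreases, which had a limma adjusted p of at most 3.41e-10 on either scale. These 15 had ranks of 29.8 to 81.9 in DOX hearts and 90.6 to 98.5 in saline hearts, 8 had a DOX mean at or under background, and all were called lower under each of the 5 scalings. Set against the DOX background level, these 8 were at least 14.4-fold to 42.3-fold lower on the plain scale, and the other 7 were 23.4-fold to 35.2-fold lower. Hspb1 itself was at 0.50, 0.75 and 1.18 on the DOX arrays and 5.57, 5.81 and 6.32 on the saline arrays. Asb2, an adaptor of a ubiquitin ligase that targets filamins in muscle, was at 0.31, 0.40 and 0.72 on the DOX arrays and 5.60, 5.89 and 6.06 on the saline arrays, the largest decrease on the quantile scale (difference −4.02 ± 0.09). In both genes the lowest saline array was more than 4 log2 units above the highest DOX array.

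Regulators of transcription were part of this set. Cebpb, a transcription factor that restrains cardiomyocyte growth in mouse hearts, was at −0.01, 0.19 and 0.39 on the DOX arrays and 4.56, 5.06 and 5.57 on the saline arrays. Fhl2, a LIM-domain cofactor of the heart, was at 0.71, 1.50 and 2.21 on the DOX arrays and 6.32, 6.68 and 6.88 on the saline arrays. The groups were apart by a wide margin in each. Tle5, a corepressor, differed by −5.03, and Med25, a subunit of the Mediator complex, by −4.27 on the plain scale.

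Mybpc3, myosin-binding protein C of the thick filament, was at 0.88, 1.51 and 2.36 on the DOX arrays and 6.34, 6.64 and 6.89 on the saline arrays, and no arrays overlapped. Cavin3, a coat protein of caveolae, was at 0.02, 0.33 and 0.78 on the DOX arrays and 4.53, 4.87 and 5.24 on the saline arrays. Most DOX values of Cavin3 were near the level of unexpressed probes. The other genes of the 15 were Ptp4a3, a phosphatase, Mrpl4 and Rpl6, proteins of the mitochondrial and cytosolic ribosomes, Pabpc4, which binds poly(A) tails, Fem1a, a ubiquitin ligase adaptor, Wfdc1, a secreted protein, and Pkm, the glycolytic pyruvate kinase, with plain differences between −4.93 for Pabpc4 and −4.03 for Pkm.

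Lists of genes by function are given by their counts and their median on the quantile scale, beside −0.23 and 15.5% lower on both scales over all tested genes. Over all tested genes the median was −0.94 on the plain scale, 0.00 with quantile normalization over the tested genes, −0.08 with cyclic loess and 0.17 under median and MAD scaling. The lists were 32 in number, and the share of tested members that were lower on both scales exceeded that of all genes in 24 of them. The median of 25 lists changed its sign under median and MAD scaling, so a direction of a list below holds relative to the distribution that the quantile scale sets. A MAD median is to be read beside the 0.17 of all tested genes, and an equal sign alone does not show that a direction holds. Many single genes below are given by their plain difference, which is to be read beside the −0.94 of all tested genes. The median gene that was lower on both scales differed by −2.64 on the plain scale and by −1.42 on the quantile scale.

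**Figure D5:**
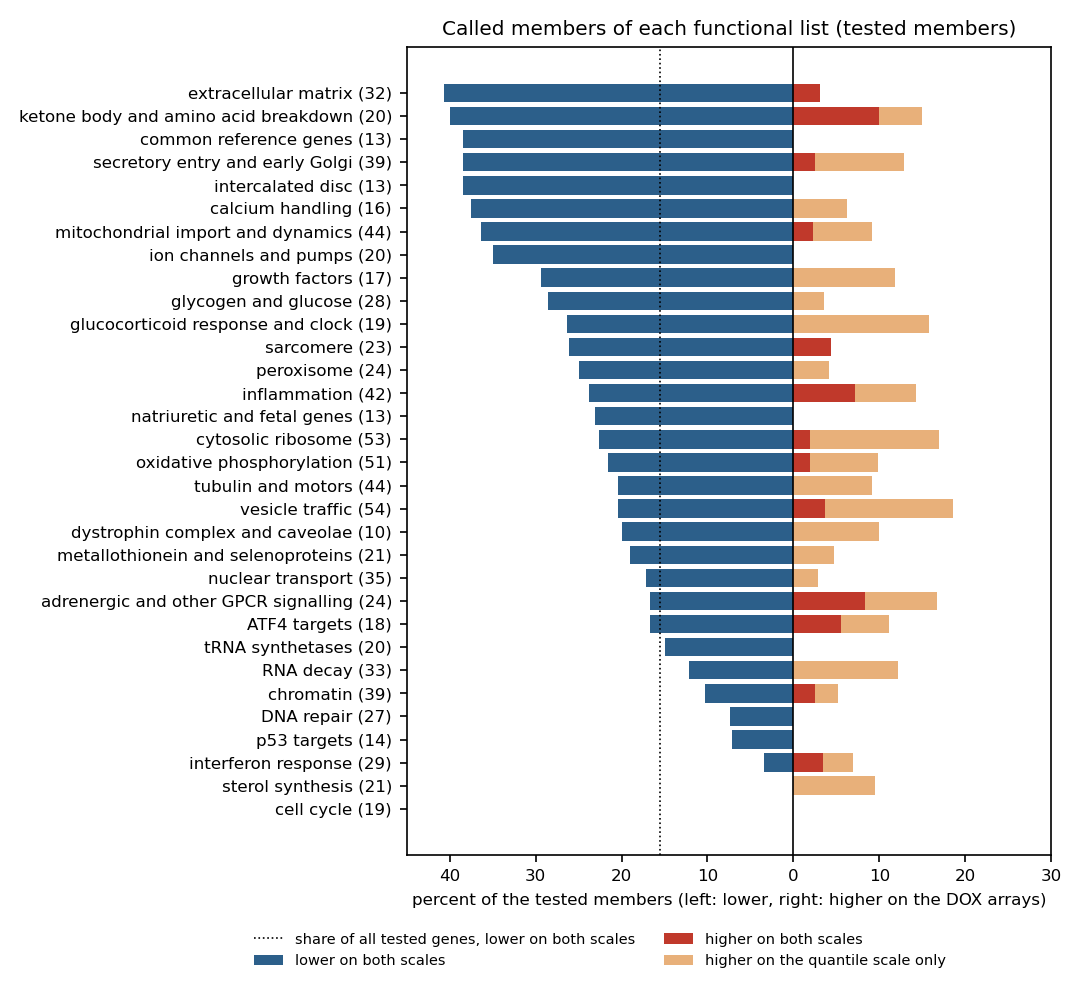
Share of the tested members of each functional list (number in brackets) that were lower on both scales (left), higher on both scales or higher on the quantile scale only (right). The dotted line marks the 15.5% of all tested genes that were lower on both scales; the matrix list extends farthest to the left, with 13 of 32.

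The intercalated disc, where cardiomyocytes adhere and couple, had 5 of 13 tested members lower on both scales and 0 higher, with a median of −0.34 (0.27 under median and MAD scaling). Jup, the plakoglobin of desmosomes and adherens junctions, was at −0.06, 0.37 and 1.04 on the DOX arrays and 3.78, 3.99 and 4.27 on the saline arrays. Ctnnb1, the beta-catenin of adherens junctions, was at −0.12, 0.16 and 0.25 on the DOX arrays and 1.65, 2.78 and 3.33 on the saline arrays. No array of either gene overlapped between groups, and both were lower under every scaling, as were Ctnnd1 (plain difference −3.10) and Nrap (plain difference −3.82), which ties myofibrils to the disc. Ctnna1 was lower on both scales but turned to 0.995 under median and MAD scaling. The gap junction gene Gja1 was lower on the plain scale only, with 5.15, 5.45 and 5.72 on the DOX arrays and 6.67, 7.26 and 7.63 on the saline arrays, and its rank was 99.7 in DOX hearts and 99.2 in saline hearts.

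Ion channels and pumps had 7 of 20 lower on both scales and 0 higher, with a median of −0.71 (−0.40 under median and MAD scaling). Kcnip2, the accessory subunit of the transient outward potassium current, was at 0.11, 1.04 and 1.84 on the DOX arrays and 3.52, 4.16 and 4.76 on the saline arrays. Of the ATP-sensitive potassium channel, the pore gene Kcnj11 differed by −2.41 and the regulatory subunit genes Abcc8 and Abcc9 differed by −2.35 and −2.85 on the plain scale. On the quantile scale Abcc8 and Abcc9 differed by −1.56 and −1.31. Neither was called under every scaling, with −0.92 for Abcc8 under cyclic loess and −0.36 for Abcc9 under median and MAD scaling. Kcnk3, a background potassium channel, Cacna2d1, an accessory subunit of the L-type calcium channel, and Fxyd1, the phospholemman that restrains the sodium pump, differed by −2.09, −2.95 and −3.76 on the plain scale. Plain levels of the groups did not overlap in any of these 7 genes, as in 63.4% of all tested genes.

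Calcium handling had 6 of 16 lower on both scales and 1 higher on the quantile scale only, with a median of −0.53 (0.16 under median and MAD scaling). The sarcoplasmic reticulum pump Atp2a2 was at 3.88, 4.69 and 5.23 on the DOX arrays and 8.14, 8.55 and 8.68 on the saline arrays, far apart on the plain scale, yet its difference turned to 3.10 under median and MAD scaling. The release channel Ryr2 was at 1.04, 1.70 and 2.46 on the DOX arrays and 0.47, 1.21 and 1.47 on the saline arrays, with overlap, and was called only on the quantile scale (difference 1.69 ± 0.12). Camk2g, a calcium-dependent kinase, Ppp3r1, the regulatory subunit of calcineurin, and Orai1, a calcium entry channel, differed by −2.98, −3.33 and −2.48 on the plain scale.

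Members of the cyclic AMP route went in both directions. Prkaca, the catalytic subunit of protein kinase A, was at 0.06, 1.19 and 1.82 on the DOX arrays and 4.96, 5.22 and 5.53 on the saline arrays. Pkia, an inhibitor of that kinase, was at 1.66, 2.65 and 3.53 on the DOX arrays and 0.69, 1.88 and 2.60 on the saline arrays. Prkaca was lower under every scaling without overlap, whereas Pkia was higher on the quantile scale (quantile difference 2.37 ± 0.16) and its plain levels overlapped. The adenylyl cyclase gene Adcy5 differed by 1.62 ± 0.16 and the muscarinic receptor gene Chrm2 by 1.98 ± 0.14 on the quantile scale, both uncalled on the plain scale, where they differed by 0.22 and 0.73. Adra1b, an alpha-adrenergic receptor, differed by −3.17, and the G protein genes Gnai2 and Gnb1 differed by −3.40 and −2.70 on the plain scale. On the quantile scale these 3 genes differed by −1.74, −1.95 and −1.05, and the quantile levels of Adra1b overlapped. Gnb1 turned to 0.39 under median and MAD scaling. Over this list of adrenergic and other receptor signalling genes 2 of 24 were higher on both scales, 2 on the quantile scale only and 4 lower on both, with a median of −0.01, which was 0.42 under median and MAD scaling.

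The extracellular matrix list had 13 of 32 lower on both scales and 1 higher, with a median of −0.75 (−0.01 under median and MAD scaling). Col1a2, a chain of fibrillar collagen, was at 0.86, 1.44 and 2.33 on the DOX arrays and 4.78, 5.83 and 6.53 on the saline arrays. Col4a1, a chain of basement membrane collagen, was at 0.25, 0.57 and 0.75 on the DOX arrays and 3.08, 3.53 and 3.88 on the saline arrays. The groups were apart in both. Lum, a small proteoglycan that organizes collagen, differed by −3.73, and Plod1, which hydroxylates collagen lysines, differed by −2.36 on the plain scale. Dcn and Igfbp7 were lower on both scales but turned to 1.33 and 0.89 under median and MAD scaling. The exception was the laminin chain Lamc1, at 1.89, 2.54 and 3.38 on the DOX arrays and 1.30, 1.52 and 1.73 on the saline arrays, whose plain difference of 1.04 fell under 2-fold without DOX array 2 (0.937) or DOX array 3 (0.999). Markers of fibroblasts had 5 of 11 lower on both scales, with a mean level of 1.37 to 2.57 on the DOX arrays and 3.75 to 5.16 on the saline arrays. Their median was −0.93 on the quantile scale but 1.21 under median and MAD scaling. Only 1 of the 11 was lower under every scaling.

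Endothelial markers had 4 of 11 lower on both scales, and their mean level was 0.68 to 1.85 on the DOX arrays and 2.98 to 3.71 on the saline arrays. Their median was −0.91 on the quantile scale and −0.38 under median and MAD scaling. Only 1 of the 11 was lower under every scaling. Aqp1, a water channel of capillaries, was at 0.50, 1.31 and 2.25 on the DOX arrays and 4.78, 5.27 and 5.61 on the saline arrays. Tie1 and Tek encode paired receptor kinases of the vessel wall. Tie1 was at −0.03, 0.19 and 0.75 on the DOX arrays and 2.39, 2.78 and 3.10 on the saline arrays, without overlap. Tek was at 1.29, 1.61 and 2.24 on the DOX arrays and 1.36, 1.73 and 2.35 on the saline arrays, with nearly the same range in both groups and a quantile difference of 1.24 ± 0.09. Vwf and Nos3, the clotting protein and the nitric oxide synthase of endothelium, differed by −2.88 and −2.44 on the plain scale. Of secreted growth factors and chemokines, Vegfb differed by −3.03, Igf2 by −3.28 and Cxcl12 by −2.64 on the plain scale, all lower under every scaling, while Fgf1 was uncalled on the plain scale (plain difference 0.87) and higher on the quantile scale (quantile difference 1.75). Of smooth muscle 4 markers were tested, of which 1 was lower on both scales, 2 on the plain scale only and 1 uncalled. Their median was −0.63 (−0.13 under median and MAD scaling), and 1 had a saline mean at or under background. The marker lower on both scales was Smtn, a protein of contractile smooth muscle, which differed by −3.49 on the plain scale.

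The list for the dystrophin complex and for caveolae, the membrane pits of endothelium and muscle, had 2 of 10 lower on both scales, 4 on the plain scale only, 1 higher on the quantile scale only and 0 on both, with a median of 0.05 (0.48 under median and MAD scaling). Cav1, the caveolin of endothelium, was lower on the plain scale only, on both of its probes (plain differences −1.29 and −1.27). Cavin3 and Cav3, the muscle caveolin, differed by −4.48 and −2.28 on the plain scale. Cavin2 was at 1.51, 2.56 and 2.92 on the DOX arrays and 1.82, 2.19 and 2.47 on the saline arrays, overlapping on the plain scale and higher on the quantile scale (quantile difference 1.66 ± 0.14). Dag1, the dystroglycan that links the cytoskeleton to the matrix, differed by −3.43 on the plain scale.

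Entry into the secretory route had 15 of 39 lower on both scales, 1 higher on both and 4 higher on the quantile scale only, with a median of −0.67 (0.03 under median and MAD scaling). Beside Sec61b, the oligosaccharyltransferase genes Rpn1, Rpn2 and Ddost, which attach sugars to new proteins, differed by −3.08, −3.16 and −2.44, and Srp68 of the signal recognition particle differed by −2.86 on the plain scale. Tmed10, a cargo receptor between the endoplasmic reticulum and the Golgi, was at 0.22, 0.79 and 1.29 on the DOX arrays and 4.03, 4.28 and 4.73 on the saline arrays. Sec61g, described above, was the only tested member higher on both scales. Later vesicle traffic had 11 of 54 lower on both scales, 2 higher on both and 8 higher on the quantile scale only, with a median of −0.44 (−0.09 under median and MAD scaling). Related GTPases went apart, in that Rab10 was at 1.59, 2.57 and 3.35 on the DOX arrays and 0.96, 1.27 and 1.43 on the saline arrays, and Rab11b was at −0.12, 0.20 and 0.35 on the DOX arrays and 2.76, 3.05 and 3.60 on the saline arrays. Ap1m1, an adaptor of clathrin coats, and Napa, which recycles fusion complexes, differed by −3.23 and −2.95 on the plain scale. In nuclear transport 6 of 35 were lower on both scales, with a median of −0.32 (0.05 under median and MAD scaling). Ipo13, an importin, differed by −3.18 on the plain scale. Kpna4, an importin alpha, was uncalled there (plain difference 0.51) and higher on the quantile scale (quantile difference 1.78).

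Within mitochondria, the list for protein import and dynamics had 16 of 44 lower on both scales and 1 higher on both, with a median of −0.65 (0.70 under median and MAD scaling). Timm13, a small chaperone of the intermembrane space, was the higher one, with 2.89, 3.31 and 4.16 on the DOX arrays and 1.66, 1.80 and 2.16 on the saline arrays. Phb2, a prohibitin of the inner membrane, was at 0.29, 0.76 and 1.45 on the DOX arrays and 4.28, 4.72 and 5.12 on the saline arrays. The groups were separate in both genes. Mfn2, which fuses mitochondria, and Afg3l2, a protease of the inner membrane, differed by −3.81 and −2.77 on the plain scale, and Samm50, which inserts outer membrane proteins, was lower on both scales but turned to 0.70 under median and MAD scaling.

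Subunits of the ATP synthase differed among themselves. Atp5mk was at 4.97, 5.46 and 5.88 on the DOX arrays and 2.93, 3.74 and 4.09 on the saline arrays. Atp5mc2, which encodes the ring subunit c, was at 0.40, 0.98 and 1.70 on the DOX arrays and 5.18, 5.40 and 5.73 on the saline arrays. These subunits went in opposite directions under every scaling, with no overlap in either. The catalytic subunit genes Atp5f1a and Atp5f1b differed by −4.01 and −3.88 on the plain scale and turned to 2.65 and 3.28 under median and MAD scaling. Atp5mc1, a second gene for subunit c, had a rank of 99.8 in DOX hearts and 99.8 in saline hearts. Over oxidative phosphorylation 11 of 51 were lower on both scales, 34 on the plain scale only and 1 higher on both, and the median of −0.28 was close to that of all genes (3.33 under median and MAD scaling).

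Breakdown of amino acids and ketone bodies had 8 of 20 lower on both scales and 2 higher on both, with a median of −0.82 (0.86 under median and MAD scaling). The higher ones were Mccc2 and Aldh6a1, a dehydrogenase of valine breakdown (plain difference 1.23). Mccc1, the partner subunit of Mccc2, was at 1.21, 2.19 and 2.71 on the DOX arrays and 4.51, 4.67 and 5.03 on the saline arrays, so it was lower on the plain scale only (plain difference −2.57 ± 0.16). Both subunit genes of the branched-chain ketoacid dehydrogenase fell on both scales, with plain differences of −2.96 for Bckdha and −3.08 for Bckdhb, as did Got2, the mitochondrial aspartate transaminase, with −4.24. The quantile differences were −2.11 for Bckdha and −1.42 for Bckdhb. Glycogen and glucose genes had 8 of 28 lower on both scales and 0 higher on both, with a median of −0.68 (0.83 under median and MAD scaling). Pgm1, which joins glycogen to glycolysis, was at −0.07, 0.27 and 0.69 on the DOX arrays and 3.14, 3.49 and 3.76 on the saline arrays, and Pygm, muscle glycogen phosphorylase, was lower on both scales but turned to 0.68 under median and MAD scaling. Pdk4, the kinase that holds back pyruvate oxidation, was at 1.85, 3.43 and 4.06 on the DOX arrays and 2.56, 3.74 and 4.04 on the saline arrays, with overlap, and was higher on the quantile scale only (quantile difference 1.36 ± 0.27).

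Peroxisomes had 6 of 24 lower on both scales, with a median of −0.54 (0.07 under median and MAD scaling). Gnpat, the first enzyme of plasmalogen synthesis, was at 0.17, 0.76 and 1.08 on the DOX arrays and 3.69, 4.09 and 4.31 on the saline arrays, and Cat, catalase, was at −0.08, 1.42 and 1.84 on the DOX arrays and 3.36, 4.02 and 4.37 on the saline arrays. Neither overlapped. Phyh, which oxidizes branched fatty acids, differed by −4.36 on the plain scale and turned to 0.32 under median and MAD scaling. Of the selenoproteins and metallothioneins 4 of 21 were lower on both scales, with a list median of −0.41 (0.68 under median and MAD scaling). These 4 included Gpx3, the extracellular glutathione peroxidase (plain difference −3.60), and Txnrd2, the mitochondrial thioredoxin reductase (plain difference −2.83).

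The cytosolic ribosome had 12 of 53 lower on both scales, 1 higher on both and 8 higher on the quantile scale only, with a median of −0.13 (3.18 under median and MAD scaling). Rps24 was at 3.44, 3.76 and 4.05 on the DOX arrays and 1.16, 1.25 and 2.89 on the saline arrays. Rpl6 was at 0.69, 1.77 and 1.99 on the DOX arrays and 5.86, 6.44 and 6.93 on the saline arrays. Each was called in its own direction under every scaling, without overlap, and Rpl10 and Rps2 were lower under every scaling as well, with differences of −4.38 and −2.79 on the plain scale. Rps20 and Rps21 were higher on the quantile scale only, with quantile differences of 1.91 and 2.42, and had plain differences of 0.10 and 0.60. Rplp0, often used as a reference gene, differed by −4.08 on the plain scale and 2.03 under median and MAD scaling. Ribosomal protein genes have near-identical pseudogene copies, so the transcript behind each probe is uncertain. The tRNA synthetases had 3 of 20 lower on both scales and 14 on the plain scale only, with a median of −0.69 (−0.33 under median and MAD scaling); Aars1, which charges the alanine tRNA, differed by −2.95 and Kars1, for lysine, by −3.09 on the plain scale.

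Genes that respond to glucocorticoids, and clock genes, had 5 of 19 lower on both scales and 3 higher on the quantile scale only, with a median of −0.42 (0.11 under median and MAD scaling). Klf15, a regulator of metabolic rhythm in the heart, was at 0.13, 0.65 and 1.20 on the DOX arrays and 3.35, 3.92 and 4.15 on the saline arrays, without overlap. Klf9, Per1 and Nr1d1, glucocorticoid and clock genes, differed by −3.17, −2.10 and −2.02 on the plain scale. Tsc22d3, which encodes the glucocorticoid-induced leucine zipper, was at 3.12, 3.99 and 4.46 on the DOX arrays and 4.26, 4.61 and 5.35 on the saline arrays, with differences of −0.84 on the plain scale and 1.07 on the quantile scale. Its levels overlapped slightly between the groups, while its rank was 97.6 in DOX hearts and 92.9 in saline hearts.

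Inflammation genes had 3 of 42 higher on both scales (1.36% of all genes), namely Fgb and the neutrophil markers S100a8 and S100a9, and 10 lower on both, with a median of −0.10 (0.27 under median and MAD scaling). Fgb, a chain of fibrinogen, was at 0.27, 1.09 and 2.17 on the DOX arrays and −0.17, −0.02 and 0.88 on the saline arrays, with overlap through 1 saline array, and its plain difference was 0.954 without DOX array 2. Cxcl11, a chemokine, was at 0.00, 0.66 and 0.90 on the DOX arrays and 3.49, 3.97 and 4.28 on the saline arrays, without overlap. Nfkbia, the inhibitor of NF-kappa B, was higher on the quantile scale only (quantile difference 1.99 ± 0.26), at 3.20, 4.25 and 4.70 on the DOX arrays and 3.005, 4.23 and 5.20 on the saline arrays. The interferon list had 1 of 29 called higher on both scales, Psmb9, and 1 lower on both, with a median of 0.00, and 0.37 under median and MAD scaling.

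The natriuretic and fetal genes, the classical markers of a loaded heart, had 3 of 13 lower on both scales and 0 higher, with a median of −0.75 (0.05 under median and MAD scaling). Nppa, atrial natriuretic peptide, was at 0.77, 1.01 and 1.83 on the DOX arrays and 2.16, 4.01 and 7.97 on the saline arrays, and its saline values were widely spread. Acta1, skeletal alpha-actin, was at −0.06, 0.36 and 1.13 on the DOX arrays and 3.66, 4.43 and 5.64 on the saline arrays. Neither overlapped between the groups.

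Of p53 targets 1 of 14 was lower on both scales, 6 more on the plain scale only and 0 were higher. The median of the list was −0.36 (0.14 under median and MAD scaling). The gene lower on both scales was Sesn1, a stress-induced sestrin, at 0.39, 0.93 and 1.37 on the DOX arrays and 3.30, 3.94 and 4.42 on the saline arrays. Cdkn1a, the cell cycle inhibitor p21, was not called, with −0.12, 0.41 and 0.69 on the DOX arrays and 0.91, 1.08 and 1.88 on the saline arrays. Of DNA repair genes 2 of 27 were lower on both scales and 0 higher, and of cell cycle genes 0 of 19 in either direction. On the plain scale alone 7 more repair genes and 3 cell cycle genes were lower. The medians were −0.20 for repair (0.13 under median and MAD scaling) and −0.07 for the cell cycle (0.19). Of the cell cycle genes 9 had a saline mean at or under background, so a decrease could not be measured in them.

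The 355 genes that were higher on the quantile scale only had a median difference of 1.29 there and 0.20 on the plain scale. Rangrf, a Ran-binding protein that also helps to bring the cardiac sodium channel to the membrane, led them, with 4.19, 4.87 and 5.36 on the DOX arrays and 3.35, 3.90 and 4.49 on the saline arrays. Its plain groups overlapped (plain difference 0.89 ± 0.17), and its rank was 99.2 in DOX hearts and 87.1 in saline hearts. Ackr3, a scavenger receptor for Cxcl12, was at 2.72, 3.62 and 3.96 on the DOX arrays and 2.22, 2.76 and 3.29 on the saline arrays. Prpf38b and Hnrnpa2b1, proteins of mRNA splicing, had quantile differences of 2.55 and 2.27 and plain differences of 0.85 and 0.27. The others of the 10 largest were Ubr4, Hist1h2bd, Rps21, Pkia, Txndc15 and Tpm4, whose quantile differences lay between 2.25 for Tpm4 and 2.53 for Ubr4.

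Eif4a2, an RNA helicase of the cap-binding complex, was the gene called in opposite directions. It was at 4.55, 4.88 and 5.23 on the DOX arrays and 5.48, 6.12 and 6.46 on the saline arrays. Its plain level was lower on every DOX array (plain difference −1.19 ± 0.12), while its quantile level was higher (quantile difference 1.01 ± 0.07) and its rank was 99.4 in DOX hearts and 97.5 in saline hearts. Both calls were at the edge of the 2-fold limit.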

How the data were processed

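Left ventricle RNA of 9 DOX and 8 saline rats was amplified with primers at the 3′ end and at random positions, labelled with biotin and read on Illumina RatRef-12 BeadChips. Intensities were exported by the authors without background subtraction and deposited on a log2 scale. The methods name a subtraction of the median of the unexpressed probes on each array, whereas every deposited column has a median over all probes of 0. How repeat arrays of 7 rats enter these values is not stated. Tables of raw intensities hold 34 columns whose names match no label and were not used, so detection p-values were not available to the tests and signal over background limits the precision.

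Of 22523 probes, 13793 had 1 gene symbol, 8730 none and 0 several, in the platform annotation updated through Entrez IDs to RefSeq (13752 IDs matched). Each gene took the values of its brightest probe on average, and the 6760 genes with a 34-array average above 0.1524 were tested; this value was derived here, on the deposited scale, as the midpoint between the highest average of a probe that the study marks as not expressed and the lowest of one marked as expressed. Both choices used averages over all 34 arrays, DOX hearts included. A probe could therefore stand for its gene, or a gene be tested, through its DOX level. In Pacsin3 and Slc25a30 the probe used was the dimmer one in saline hearts (means 1.18 and 0.55, the other probes 1.50 and 0.68). The plain scale subtracts the median of the 13137 unexpressed probes. The other scalings were quantile normalization over all probes, the same over tested genes only, cyclic loess, and a common median and median absolute deviation.

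Groups were compared with limma 3.58.1 in R 4.3.3 (lmFit, eBayes, Benjamini-Hochberg adjustment over all tested genes), and array measures by exact permutation tests. The rats are separate animals. In data simulated with the spread of each of the 6760 genes, a small part of the genes was shifted by 1.5 log2 units in either direction. There limma recovered 99.5% of the shifted genes with 0 false calls. The simulated arrays had none of the dimming, the narrower range or the background floor of the DOX arrays. The simulation therefore does not give the number of false calls to be expected in this comparison. The genes named are the 15 largest quantile differences in each direction that were called on both scales without overlap, all opposite calls, the 10 largest calls on the quantile scale only, the 10 highest ranks per group, and list members. The members, lists and tests were chosen with earlier results of these data known. Tables were made in Python 3.11.15 with pandas 2.3.3 and numpy 2.4.6, and figures with matplotlib 3.10.9.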

Additional observations from a re-analysis of the deposited data

Results flagged for a closer look

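Single arrays that stood far from the rest of their group by Dixon's criterion were found in 24 of 344 groups of values checked (6.98%), while chance flags about 1 in 20. Among the DOX arrays, array 6, the dimmest, was the low one for Hsp90ab1 (2.42, the others 3.54 to 4.45), Slc25a30 (2.48, the others 2.94 to 3.40), Eif1a (1.31, the others 2.61 to 3.32), Txndc15 (2.94, the others 3.56 to 4.13), Atp5f1b (4.01, the others 4.56 to 5.08), Atp5pd (3.89, the others 4.74 to 5.40) and Slc25a4 (5.25, the others 5.75 to 6.23). DOX array 5 was low for Ackr3 (2.72, the others 3.45 to 3.96), and DOX array 8 was high for Higd2a (3.20, the others 1.78 to 2.46).

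Among the saline arrays, array 2 was low for Tpm4 (2.16, the others 2.80 to 3.34), Ctnnb1 (1.65, the others 2.59 to 3.33), Chrm2 (0.32, the others 1.32 to 2.08), Ldb3 (3.96, the others 4.55 to 4.97), Ryr2 (0.47, the others 1.05 to 1.47), Myl3 (7.84, the others 8.16 to 8.32) and Tpm1 (8.22, the others 8.49 to 8.65). Saline array 6 was high for Eif1a (2.13, the others 1.05 to 1.52), Igfbp7 (6.68, the others 5.78 to 6.21) and Gpx3 (6.01, the others 4.52 to 4.89), and saline array 5 was high for Fgb (0.88, the others −0.17 to 0.17). Saline array 8 was low for Kcnk3 (1.68, the others 2.12 to 2.35) and Plod1 (1.93, the others 2.37 to 2.54). Saline array 7 was low for Zfp799 (0.071, the others 0.29 to 0.42) and saline array 3 for Wfdc1 (3.70, the others 5.05 to 5.89).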

How the results depend on the processing

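The 92 genes that were higher on both scales numbered 92 under every scaling. This count was set by the plain scale, since each other scaling called more genes higher (448, 662, 609 and 1435). It is therefore no measure of how the increases depend on the scaling. The 1049 that were lower on the quantile scale, and with it on both scales, numbered 684 with quantile normalization over the tested genes, 475 with cyclic loess and 395 with median and MAD scaling, and the 1141 genes called alike on both scales numbered 567 with cyclic loess and 487 with median and MAD scaling. The split of higher to lower calls, 448 to 1049 on the quantile scale, was 662 to 684, 609 to 475 and 1435 to 395 under the same 3 scalings. Median and MAD scaling stretches the narrower DOX arrays, and it turned the sign of 22 named genes that were lower on the quantile scale or near 0 there: Actn2 (0.22), Atp2a2 (3.10), Atp5f1a (2.65), Atp5f1b (3.28), Atp5mc1 (5.69), Cryab (3.63), Ctnna1 (0.995), Dcn (1.33), Gnb1 (0.39), Hspd1 (1.90), Igfbp7 (0.89), Mb (4.65), Myh6 (6.28), Myl3 (4.53), Phyh (0.32), Pygm (0.68), Rplp0 (2.03), Samm50 (0.70), Tnnc1 (5.56), Tnni3 (6.07), Tnnt2 (5.89) and Tpm1 (5.67).

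Leaving out 1 array at a time gave 3262 to 3398 calls on the plain scale (81 to 97 higher, 3170 to 3310 lower), 1415 to 1600 on the quantile scale (426 to 471 higher, 987 to 1129 lower) and 1079 to 1222 on both. The difference in median level stayed between −1.10 and −1.03 and that in distinct values between −18393 and −18146. Genes apart by rank numbered 1200 to 1326 in the higher direction and 1433 to 1568 in the lower, against 1192 and 1426 with all arrays. Their number cannot fall when an array is left out, so it is no measure of stability. Sec61b lost its quantile call without any one of 7 saline arrays (−0.99 to −0.95). The replicate numbers do not pair the rats, since same-numbered arrays deviated together with r between −0.143 and 0.146; with the number as a replicate block there were 3341 calls on the plain scale, 1551 on the quantile scale and 1187 on both.

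Every DOX array had few distinct values and every saline array many, so no alternative separates this property of the arrays from treatment. A decrease cannot be measured in genes whose saline level is at background.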
